A study of Homo sapiens with 6 samples.

Results

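The genes described here encode the enzymes that build cholesterol and fatty acids in the cell, together with the proteins that switch these enzymes on. They were taken as a named list of 33 genes, set by pathway role, and looked up by name in the deposited table. The list was chosen with earlier results of these data known. Rows were found for 32 of the 33 among 22152 genes in the table; CYP51A1 was not analysed here. The question asked was how these genes differed between cells given a miR-21-3p mimic and cells given a control mimic, and how the sterol branch compared with the fatty acid branch and with the regulators of both. HaCaT cells, an established line of human keratinocytes that divides without limit in culture, were transfected either with 1 nM of a synthetic negative control miRNA (NC mimic) or with 1 nM of a synthetic miR-21-3p mimic, and RNA was taken 48 h later. Each group held 3 libraries of polyadenylated RNA, described by the submitters as biological replicates. One cell line and a transient mimic at a single dose and time limit what the comparison covers, and the p-values measure the spread between these 6 cultures.

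Cholesterol is made from acetyl-CoA through mevalonate, isoprenoid diphosphates and squalene, which is closed into a ring and trimmed to the final sterol. Fatty acids are made from the same acetyl-CoA by carboxylation, repeated condensation, elongation and desaturation. Both branches are transcribed under the sterol regulatory element binding proteins (SREBPs), which SCAP escorts out of the endoplasmic reticulum and INSIG proteins hold back when sterols are plentiful; keratinocytes use both branches to supply the lipids of the skin barrier.

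The deposited values were read counts divided by 1 scaling factor per library (normalized counts). Reads recovered from them summed to 24402815, 24528392 and 26171067 in NC mimic replicates 1 to 3. In miR-21-3p mimic replicates 1 to 3 the sums were 24808342, 24974979 and 27984002. These sums are approximate, because the deposited values were rounded to 3 significant digits. Keratinocyte markers were abundant: KRT5, the basal keratin, lay between 123000 and 139000 normalized counts in the NC libraries, and 7 of 8 keratinocyte markers had a row. Of 25 markers of fibroblasts, endothelium, leukocytes, melanocytes, hepatocytes and adipocytes, 3 could be looked up, and the other 22 were not analysed here. COL1A1, a fibroblast collagen, stood at 560, 390 and 478 in the NC libraries and 372, 378 and 364 in the miR-21-3p libraries, below every control without passing the limma test (adjusted p = 0.0641), though DESeq2 called it lower. VWF (endothelium, 712 to 801) and PMEL (melanocytes, 120 to 155) overlapped between the groups. CDH5, an endothelial cadherin outside the marker lists and named after its values were seen, read 477, 286 and 393 against 165, 178 and 122. Every treated library was below every control, and CDH5 was lower (log2 fold change -1.30, adjusted p = 0.00262). KRT6A, the keratin of activated keratinocytes, rose 1.27-fold (adjusted p = 0.00207), from 16800 ± 300 to 21300 ± 529 (SD, n = 3), and was the 1 keratinocyte marker of 7 that passed with limma, while DESeq2 also called SFN higher. Of the 7, 4 had positive and 3 negative log2 fold changes, and TP63 was below every control without passing (-0.13, adjusted p = 0.102). All libraries came from the same keratinocyte line, and in bulk samples fewer cells expressing a gene and less RNA per cell cannot be told apart.

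NC mimic replicate 2 stood closer to the miR-21-3p libraries than the other NC libraries did. Across the genes tested, its log2 values correlated with those of the 3 miR-21-3p libraries at 0.995, 0.995 and 0.994 (Pearson, across genes, which are not independent replicates), and those of NC replicate 1 at 0.991, 0.992 and 0.989. The corresponding values for NC replicate 3 were 0.993, 0.994 and 0.991. NC replicate 2 correlated less with NC replicate 1 of its own group (0.99394) than with each miR-21-3p library (0.99477, 0.99516 and 0.99445), and with NC replicate 3 at 0.99555. NC replicate 2 was also the highest NC library for 12 of the 17 sterol synthesis genes. Without it, the number of calls is given below.

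Of the 32 genes, 13 were higher and 1 was lower with the miR-21-3p mimic (limma, Benjamini-Hochberg adjusted p below 0.05 over all genes tested). Among the 14795 genes tested, 904 were higher (6.11%) and 689 lower (4.66%), or 10.8% in either direction, against 43.8% of the lipid genes. Because the list was chosen with earlier results of these data known, its shares and median beside those of all genes are a description. They are no independent test, and the genes of the background were not matched for level. All 32 passed the filter on low values. All 3 miR-21-3p libraries were above all 3 NC libraries for 15 of the 32, beside 16.5% of all genes tested, and below them for 1, beside 14.8% of all genes. The median log2 fold change was 0.15 over the 32 genes and 0.0044 over all genes tested.

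By role, 58.8% of sterol synthesis genes, 44.4% of fatty acid synthesis genes and 0% of SREBP regulators were called, beside 10.8% of all genes tested. Each role holds few genes, so these shares do not show a difference between roles. Sterol synthesis enzymes rose in 9 of 17 cases and fell in 1, with a median log2 fold change of 0.20. Fatty acid synthesis enzymes rose in 4 of 9 and fell in none by limma, edgeR or DESeq2, with a median of 0.14. None of the 4 SREBP regulators passed with any of these 3 tools, and their median was -0.05; at an unadjusted p below 0.05 the count was 0 by limma, 0 by edgeR and 1 by DESeq2, beside 4223 of all 14795 genes by limma. The difference between these medians was not tested, because genes of a list are not replicates.

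**Figure D1:**
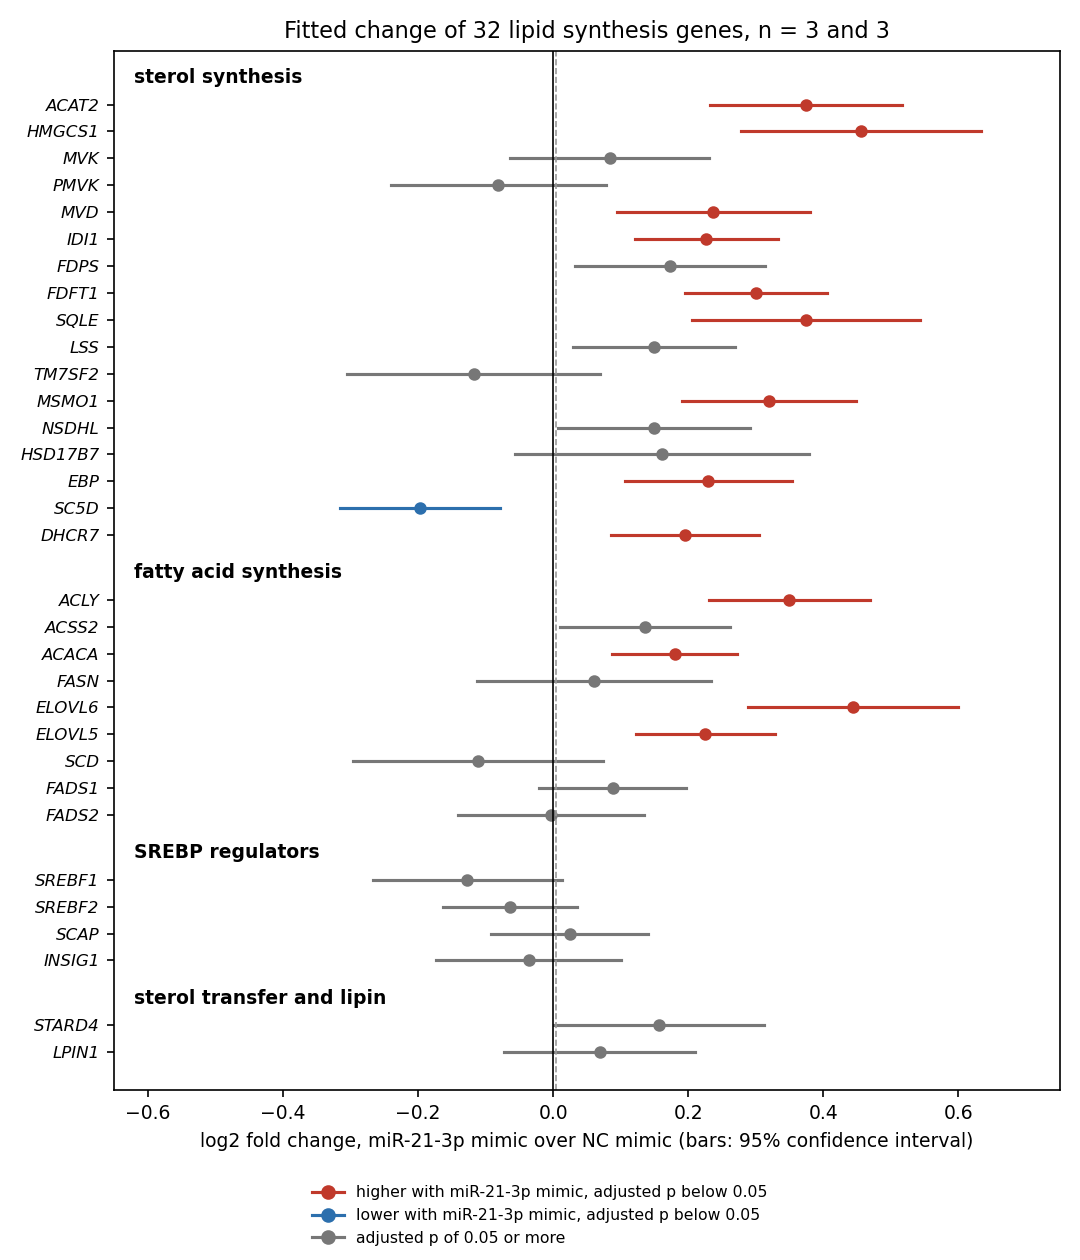
Fitted log2 fold change of each of the 32 genes (horizontal axis, miR-21-3p mimic over NC mimic, 3 libraries each) in pathway order, with its 95% confidence interval as a bar; red and blue mark adjusted p below 0.05, and the dashed line is the median of all genes. The red points run from 0.18 for ACACA to 0.46 for HMGCS1, SC5D at -0.20 is the blue one, and the 4 regulators lie between -0.13 and 0.02.

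The number of genes that passed moved with 5 of the 6 libraries left out in turn, and little without miR-21-3p mimic replicate 2 (14 of the 32 and 1523 in all). Without NC mimic replicate 3, and likewise without miR-21-3p mimic replicate 1, 3 of the 32 genes passed, and in both cases these were FDFT1, ACLY and ELOVL6; calls among all genes went from 1593 to 176 and to 242. Without miR-21-3p mimic replicate 3 there were 9 calls among the 32, and 369 in all. Leaving out NC replicate 1 left 11 of the 32 and 542 in all, and leaving out NC replicate 2 gave 17 of the 32 and 2951 in all. All 13 genes that rose had a positive fold change, and SC5D a negative one, in each of these fits.

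Promoter sequence is shown for 5 genes that stand for the range of responses: HMGCS1 and ELOVL6, with the largest rise in their branch, MSMO1, whose window holds the most CCAAT boxes of the genes that rose and have a window (ACAT2, FDFT1 and SQLE have none), SC5D, the gene that fell, and SREBF2, a regulator. Each window runs from 250 bases before to 50 bases after an annotated start, read 5′ to 3′ on the gene's strand (RefSeq, GRCh38.p14); where a gene has several starts the first in the table is shown. The capitals mark CCAAT and GGGCGG, the boxes bound by NF-Y and Sp1, which act beside SREBPs at many of these promoters, and TCACNCCAC, the core of a classical sterol regulatory element, on either strand. The windows lie at chr5:43313363-43313662 (minus strand) for HMGCS1, chr4:165327419-165327718 (plus) for MSMO1, chr4:110198566-110198865 (minus) for ELOVL6, chr11:121292521-121292820 (plus) for SC5D and chr22:41832855-41833154 (plus) for SREBF2.
HMGCS1: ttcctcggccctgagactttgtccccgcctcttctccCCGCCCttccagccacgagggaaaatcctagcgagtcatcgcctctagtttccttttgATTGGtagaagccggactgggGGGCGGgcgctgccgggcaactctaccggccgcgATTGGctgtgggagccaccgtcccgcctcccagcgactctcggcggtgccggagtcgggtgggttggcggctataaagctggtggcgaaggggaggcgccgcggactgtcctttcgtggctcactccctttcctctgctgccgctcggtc
MSMO1: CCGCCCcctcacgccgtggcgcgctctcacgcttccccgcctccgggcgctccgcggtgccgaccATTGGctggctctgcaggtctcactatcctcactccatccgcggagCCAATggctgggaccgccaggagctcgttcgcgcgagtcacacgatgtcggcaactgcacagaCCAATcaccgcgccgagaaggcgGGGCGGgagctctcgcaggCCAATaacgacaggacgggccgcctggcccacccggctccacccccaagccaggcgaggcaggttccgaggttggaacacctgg
ELOVL6: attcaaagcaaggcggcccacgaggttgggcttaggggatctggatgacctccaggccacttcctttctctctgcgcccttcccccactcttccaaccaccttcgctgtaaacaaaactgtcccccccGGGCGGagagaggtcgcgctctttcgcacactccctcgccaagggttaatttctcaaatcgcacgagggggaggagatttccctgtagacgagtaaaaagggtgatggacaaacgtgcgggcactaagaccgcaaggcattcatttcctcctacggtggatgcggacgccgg
SC5D: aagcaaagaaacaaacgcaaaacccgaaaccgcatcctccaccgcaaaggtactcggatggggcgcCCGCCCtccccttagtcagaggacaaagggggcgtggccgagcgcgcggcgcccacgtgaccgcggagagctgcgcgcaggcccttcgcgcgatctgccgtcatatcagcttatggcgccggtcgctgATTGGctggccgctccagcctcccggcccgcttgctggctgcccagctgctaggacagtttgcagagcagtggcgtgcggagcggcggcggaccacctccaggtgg
SREBF2: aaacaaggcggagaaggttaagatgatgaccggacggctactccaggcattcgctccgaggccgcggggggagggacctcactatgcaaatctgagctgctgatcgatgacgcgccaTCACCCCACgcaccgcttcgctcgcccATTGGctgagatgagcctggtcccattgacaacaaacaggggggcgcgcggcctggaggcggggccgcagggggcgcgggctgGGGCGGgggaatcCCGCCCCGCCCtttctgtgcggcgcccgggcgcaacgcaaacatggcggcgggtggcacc

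The HMGCS1 window held 2 CCAAT and 2 GGGCGG boxes, that of MSMO1 4 and 2, that of ELOVL6 0 and 1, that of SC5D 1 and 1, and that of SREBF2 1 and 3. Windows were found for 28 of the 32 genes, 40 in all, since some genes have several starts whose windows can overlap. CCAAT was present in 26 of these 40 (65.0%), against 34.6% of 35116 windows in the table and 34.5% of the windows of genes tested here. GGGCGG was present in 34 of 40 (85.0%), against 45.0% of all windows and 65.9% of those of genes tested. TCACNCCAC was present in 1 of 40, the SREBF2 window, and in 1.13% of all windows. A match describes the letters only, and a window without one says nothing about the factor.

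The first steps of sterol synthesis lead from acetyl-CoA to isoprenoid diphosphates. ACAT2, the cytosolic thiolase that joins 2 acetyl-CoA, had normalized counts of 996, 1120 and 1000 in NC replicates 1 to 3 and of 1390, 1250 and 1400 in miR-21-3p replicates 1 to 3. Every miR-21-3p library was above every NC library, and ACAT2 rose 1.30-fold (95% confidence interval 1.18 to 1.43, adjusted p = 0.00803). HMGCS1, the HMG-CoA synthase that performs the next condensation, stood at 2280, 2870 and 2440 in the NC libraries and at 3510, 3130 and 3750 in the miR-21-3p libraries. The groups did not overlap, NC replicate 2 was the highest control and miR-21-3p replicate 2 the lowest treated library, and the rise was 1.37-fold (1.21 to 1.55, adjusted p = 0.00883), the largest of the sterol genes. The kinases that phosphorylate mevalonate did not pass: MVK ranged from 1150 to 1380 and PMVK from 407 to 472 over all 6 libraries, with log2 fold changes of 0.08 and -0.08.

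MVD, the decarboxylase that makes isopentenyl diphosphate, was measured at 1910, 1790 and 1610 in the NC libraries and at 2180, 1950 and 2120 in the miR-21-3p libraries. The lowest treated library was just above the highest control, and the rise was 1.18-fold (1.07 to 1.30, adjusted p = 0.0392). IDI1, which isomerizes that product, gave 3630, 3870 and 3690 against 4600, 4320 and 4180. All treated libraries were above all controls, with a rise of 1.17-fold (1.09 to 1.26, adjusted p = 0.016). FDPS, the farnesyl diphosphate synthase, ranged from 2680 to 3140 in the NC and from 3040 to 3460 in the miR-21-3p libraries; its groups overlapped and its 1.13-fold difference (1.02 to 1.24) did not pass (adjusted p = 0.104). FDPS passed without NC replicate 2 (adjusted p = 0.0213) and without miR-21-3p replicate 2 (0.048), and over all 16 alternatives its adjusted p ran from 0.0213 to 0.366.

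The 4 calls of these early steps depended on the libraries kept. ACAT2, HMGCS1, MVD and IDI1 did not pass without NC replicate 3 or without miR-21-3p replicate 1, MVD also not without miR-21-3p replicate 3, and IDI1 also not without NC replicate 1. Over the 16 alternatives the adjusted p ran from 0.000125 to 0.0534 for ACAT2 and from 9.91e-06 to 0.0538 for HMGCS1. The range was 0.0227 to 0.175 for MVD and 0.00325 to 0.0926 for IDI1.

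Squalene is the first product committed to sterols. FDFT1, the squalene synthase, had 3140, 3290 and 3010 normalized counts in the NC libraries and 4020, 3750 and 3850 in the miR-21-3p libraries. The 2 groups were well apart, and FDFT1 rose 1.23-fold (1.14 to 1.32, adjusted p = 0.00565); it passed in each of the 16 alternatives (adjusted p from 4.23e-05 to 0.0487). SQLE, the epoxidase that prepares squalene for ring closure, read 1140, 1310 and 1060 against 1640, 1420 and 1480. No library of the miR-21-3p group was as low as any control, and the rise was 1.30-fold (1.153 to 1.46, adjusted p = 0.0145), which did not pass without NC replicate 3 or without miR-21-3p replicate 1 (0.000443 to 0.0775 over the alternatives). LSS, which closes the ring to lanosterol, ranged from 3360 to 3850 in the NC and from 3880 to 4130 in the miR-21-3p libraries. These groups did not overlap, yet the 1.11-fold difference (1.02 to 1.21) did not pass (adjusted p = 0.101); it passed without NC replicate 2 (adjusted p = 0.0299, lowest of a range up to 0.374).

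Lanosterol is turned into cholesterol by removal of methyl groups and shifts of double bonds. MSMO1, the sterol methyl oxidase, had 1880, 2150 and 1900 normalized counts in the NC libraries and 2550, 2500 and 2340 in the miR-21-3p libraries. The groups were apart, and the rise was 1.25-fold (1.14 to 1.36, adjusted p = 0.00971). Its partners in removing the methyl groups, NSDHL and HSD17B7, did not pass: NSDHL ranged from 623 to 671 against 686 to 762 without overlap (1.11-fold, adjusted p = 0.156), and HSD17B7 from 176 to 200 against 196 to 226 (1.12-fold, adjusted p = 0.314). TM7SF2, a sterol reductase, lay between 516 and 642 in the NC and between 499 and 556 in the miR-21-3p libraries, a log2 difference of -0.12 that did not pass (adjusted p = 0.395).

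EBP, the sterol isomerase, gave 1770, 1830 and 1690 in the NC libraries and 2170, 1920 and 2120 in the miR-21-3p libraries. All treated libraries were above all controls and the rise was 1.17-fold (1.08 to 1.28, adjusted p = 0.026). DHCR7, the reductase of the last step of one route to cholesterol, gave 2670, 2590 and 2390 against 2900, 2870 and 2980. Here too the groups did not overlap, with a rise of 1.14-fold (1.06 to 1.24, adjusted p = 0.0311). SC5D, the desaturase that acts between EBP and DHCR7, moved the other way: 3370, 3200 and 3290 in the NC libraries and 3050, 2910 and 2650 in the miR-21-3p libraries. Every treated library was below every control, and SC5D had a fold change of 0.872 (0.803 to 0.947, adjusted p = 0.0388).

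The calls of these late steps were lost with fewer libraries. MSMO1 did not pass without NC replicate 3 or without miR-21-3p replicate 1 (adjusted p from 0.000306 to 0.0638 over the 16 alternatives), and neither did EBP (0.00884 to 0.129), DHCR7 (0.0184 to 0.152) or SC5D (0.0189 to 0.146). EBP, DHCR7 and SC5D also did not pass without miR-21-3p replicate 3, EBP and SC5D not without NC replicate 1, and SC5D not without miR-21-3p replicate 2. With the replicate number as a block, which the design does not give as a pairing, SC5D and DHCR7 did not pass either (adjusted p = 0.056 and 0.062). The log2 fold change of SC5D was negative throughout, between -0.24 and -0.14.

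**Figure D2:**
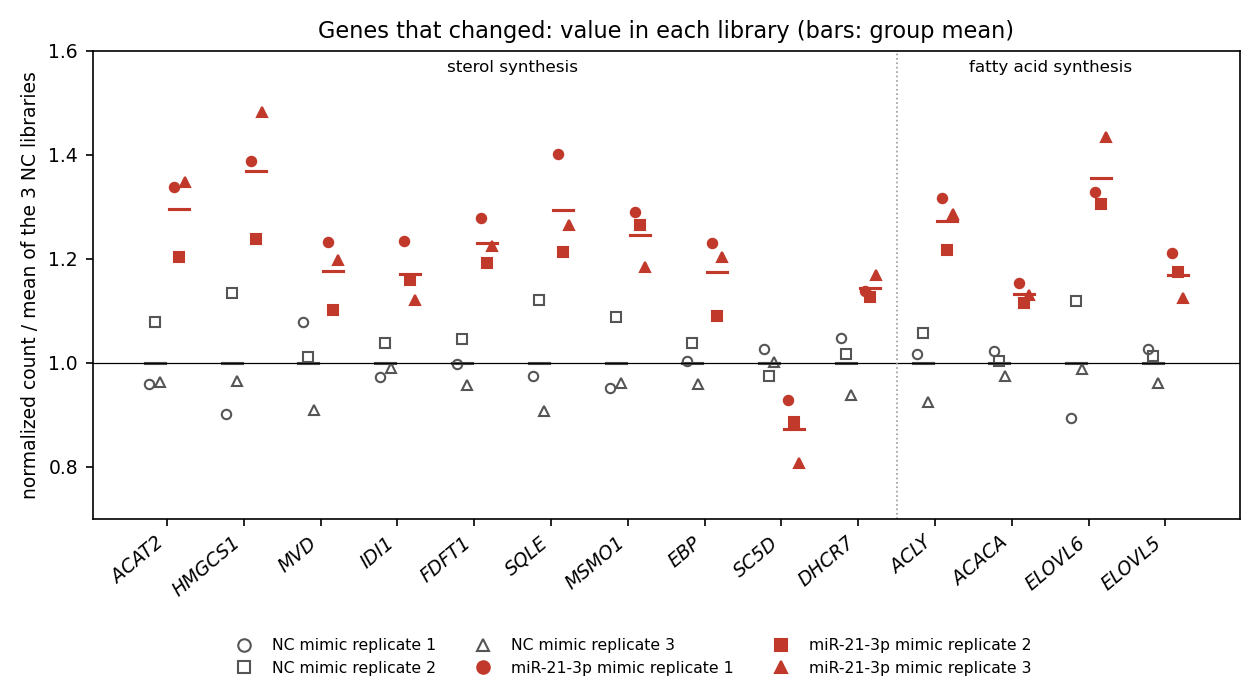
Normalized count of each of the 14 genes that changed, divided by the mean of the 3 NC libraries (vertical axis, which does not start at 0), with 1 symbol per library, open grey for NC mimic and filled red for miR-21-3p mimic, and a bar at each group mean. In 13 genes the 3 red symbols sit above the 3 grey ones and in SC5D below them, and NC replicate 2 (open square) is the highest control in 9 of the 14.

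In the fatty acid branch, the genes that rose lie at its entrance and in chain elongation. ACLY, which makes cytosolic acetyl-CoA from citrate and so feeds both branches, had 4510, 4690 and 4100 normalized counts in the NC libraries and 5840, 5390 and 5700 in the miR-21-3p libraries. The groups were clearly apart, and the rise was 1.27-fold (1.17 to 1.38, adjusted p = 0.00518). ACACA, the carboxylase that makes malonyl-CoA, gave 3550, 3480 and 3380 against 4000, 3870 and 3920. Its libraries were tightly grouped on either side, with a rise of 1.13-fold (1.06 to 1.21, adjusted p = 0.0223).

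ELOVL6, the elongase of saturated and monounsaturated chains, was measured at 2260, 2830 and 2500 in the NC libraries and at 3360, 3300 and 3630 in the miR-21-3p libraries. NC replicate 2 was again the highest control, no libraries overlapped, and the rise was 1.36-fold (1.22 to 1.51, adjusted p = 0.00554), the largest of the fatty acid genes. ELOVL5, the elongase of polyunsaturated chains, gave 2850, 2810 and 2670 against 3360, 3260 and 3120. It rose 1.17-fold (1.09 to 1.26, adjusted p = 0.0151) with no overlap. ACLY and ELOVL6 passed in each of the 16 alternatives (adjusted p from 4.68e-06 to 0.0436 and from 1.97e-06 to 0.041). ELOVL5 and ACACA did not pass without NC replicate 3 or without miR-21-3p replicate 1, nor ACACA without miR-21-3p replicate 3, with ranges of 0.00393 to 0.0881 and 0.0156 to 0.119. ACACA also did not pass with the replicate number as a block (adjusted p = 0.0616).

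The synthase and the desaturases did not pass. FASN, the synthase that builds palmitate, ranged from 21800 to 27600 normalized counts in the NC and from 23100 to 25900 in the miR-21-3p libraries. The groups overlapped, and the ratio was 1.04 (0.925 to 1.18, adjusted p = 0.656). Without NC replicate 3 its log2 fold change was negative (-0.0057). SCD, the desaturase that makes oleate, read 78100, 65900 and 71200 in the NC libraries against 69600, 72100 and 58000 in the miR-21-3p libraries. Its highest and lowest values came from NC replicate 1 and miR-21-3p replicate 3, the groups overlapped, and its log2 difference of -0.11 (adjusted p = 0.422) was the most negative of the branch.

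ACSS2, which activates acetate to acetyl-CoA, ranged from 3490 to 4050 in the NC and from 3930 to 4310 in the miR-21-3p libraries (1.10-fold, adjusted p = 0.144). The desaturases of polyunsaturated chains were also within overlapping ranges: FADS1 lay between 4940 and 5770 and FADS2 between 886 and 1020 over all 6 libraries. Their log2 fold changes were 0.09 and -0.0033, and that of FADS2 was positive with library totals alone as the scaling (0.0019) and without NC replicate 1 (0.06), miR-21-3p replicate 1 (0.0095) or miR-21-3p replicate 2 (0.0018). The median of the fatty acid genes was moved by single libraries, from 0.14 to 0.19 without NC replicate 1 and to 0.09 without NC replicate 3.

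None of the SREBP regulators passed. SREBF1, the SREBP gene linked mainly to fatty acid synthesis, had 18200, 15400 and 16800 normalized counts in the NC libraries and 15000, 16500 and 14600 in the miR-21-3p libraries. NC replicate 2 fell within the range of the treated libraries, and the ratio was 0.916 (0.831 to 1.01, adjusted p = 0.216). It passed without NC replicate 2 (log2 fold change -0.19, adjusted p = 0.0378, the lowest of a range up to 0.567). SCAP, the escort protein, gave 1290, 1180 and 1190 against 1250, 1230 and 1240. Its groups overlapped, at a ratio of 1.02 (0.938 to 1.10, adjusted p = 0.796).

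SREBF2, the SREBP gene linked mainly to sterol synthesis, ranged from 7880 to 8590 in the NC and from 7710 to 8060 in the miR-21-3p libraries, and INSIG1, the sterol-sensing retention protein and itself an SREBP target, from 8400 to 8950 and from 7600 to 9260. Both overlapped between the groups (log2 fold changes -0.06 and -0.04, adjusted p = 0.383 and 0.742), and that of INSIG1 was positive without miR-21-3p replicate 3 (0.04). The confidence intervals of the 4 regulators reached from 0.831 to 1.10 as ratios. NC replicate 1 was the highest and NC replicate 2 the lowest control for all 4 regulators, whereas NC replicate 2 was the highest control for most sterol enzymes.

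The remaining genes of the list were STARD4, which carries cholesterol between membranes, and LPIN1, a phosphatidate phosphatase of glycerolipid synthesis; neither passed with limma, edgeR or DESeq2, and at an unadjusted p below 0.05 limma gave 1 and the other tools 0. STARD4 had 909, 859 and 874 normalized counts in the NC libraries and 1030, 1050 and 874 in the miR-21-3p libraries. Treated replicate 3 equalled a control while the other 2 were above all controls, and the ratio was 1.11 (1.00 to 1.24, adjusted p = 0.173). LPIN1 gave 1700, 1510 and 1490 against 1760, 1630 and 1540. Here NC replicate 1 lay within the treated range, and the ratio was 1.05 (0.951 to 1.16, adjusted p = 0.519).

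Summed over its 17 genes, sterol synthesis stood at 32750, 34078 and 31034 normalized counts in the NC libraries and at 38670, 36055 and 37717 in the miR-21-3p libraries, or 32621 ± 1526 against 37481 ± 1323 (SD, n = 3). The sums of the 2 groups did not overlap. For the 9 fatty acid genes the sums were 129260, 112608 and 114966 against 123061, 124371 and 107891, in which SCD alone made up 65900 to 78100 in the NC libraries. These sums overlapped, as did those of the 4 regulators, at 37030, 32860 and 34960 against 32750, 35050 and 31150. The overlap of the fatty acid genes depended on the summary. Their median log2 distance from the NC mean was 0.038, 0.0044 and -0.085 in the NC libraries. In the miR-21-3p libraries it was 0.203, 0.135 and 0.070, without overlap. By this measure the sterol genes did not overlap either, and the regulators did.

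The genes also differed in level. Per kilobase of annotated exon (GENCODE v29, the union of all exons), mean NC levels were highest for SCD (13378 normalized counts per kilobase), FASN (2567), INSIG1 (2374), SREBF1 (2092) and SREBF2 (1094). None of these 5 passed the test. The sterol enzymes lay lower, from 39.3 for HSD17B7 to 858 for IDI1, and the genes that rose from 242 for ACAT2 to 858 for IDI1.

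**Figure D3:**
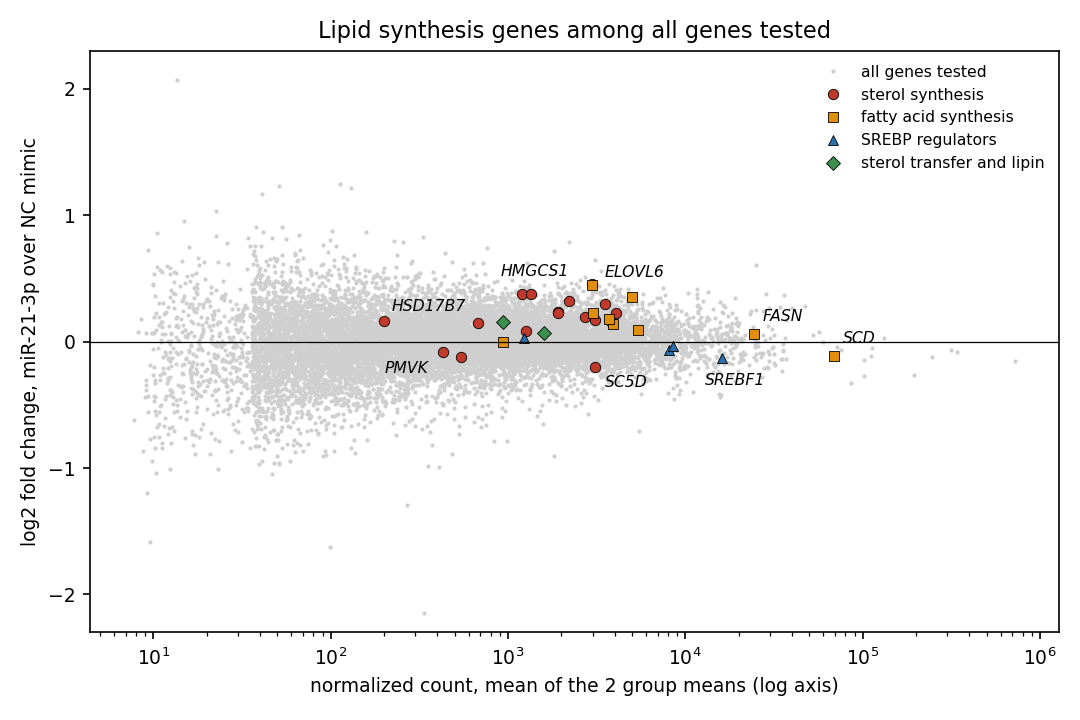
Log2 fold change (vertical axis, miR-21-3p over NC mimic) against normalized count (horizontal log axis, mean of both group means, not divided by length) for all 14795 genes tested in grey and the 32 lipid genes in colour by role. The genes that rose lie at middle levels, with HMGCS1 and ELOVL6 nearly on the same point, while SCD, FASN and SREBF1 lie to the right, close to 0.

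Genes around the pathway were followed in 9 further lists, whose counts stand beside 10.8% of all genes called, 6.11% higher and 4.66% lower. At 1 gene each, isoprenoid branches (9.09%), sterol transport and storage (8.33%) and fatty acid oxidation (5.26%) had a smaller share called than all genes. Isoprenoid branches, which lead from farnesyl diphosphate to ubiquinone, dolichol and prenylated proteins, gave 1 higher gene of 11 (median log2 fold change 0.09). That gene was PDSS1, which builds the ubiquinone side chain, at 124, 162 and 113 in the NC libraries and 186, 166 and 237 in the miR-21-3p libraries. Its groups were separated by a narrow gap (1.47-fold, 1.16 to 1.86, adjusted p = 0.0398). PDSS1 did not pass without NC replicate 1 or 3, or without miR-21-3p replicate 1 or 3 (adjusted p from 0.00376 to 0.162 over the alternatives).

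Partners of the sterol enzymes, such as cytochrome b5 and its reductase, gave 0 of 10 with limma (median 0.07), 4 at an unadjusted p below 0.05 (4223 of all 14795 genes), 1 with edgeR and 2 with DESeq2. FAXDC2, named after its value was seen, was lower with DESeq2 (log2 fold change -0.55, limma adjusted p = 0.0572). Genes that process or degrade SREBPs and their partners gave 0 of 11 with limma (median 0.01), 1 at an unadjusted p below 0.05, 0 with edgeR and 1 with DESeq2, PAQR3 (0.38, limma adjusted p = 0.052), likewise named after its value was seen.

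Sterol transport and storage gave 1 lower gene of 12 (median -0.01): GRAMD1C, a member of a family that moves cholesterol from the plasma membrane, at 837, 769 and 867 against 666, 691 and 608. All treated libraries were below all controls (fold 0.795, 0.715 to 0.883, adjusted p = 0.0151). Of the liver X receptor arm, which senses oxidized sterols, 5 of 6 genes had a row, and 1 was lower (median -0.14): MYLIP, a ubiquitin ligase that acts on lipoprotein receptors, at 1170, 986 and 1080 against 798, 874 and 832. Again no libraries overlapped (fold 0.775, 0.699 to 0.860, adjusted p = 0.00996). Neither gene passed without NC replicate 3 or without miR-21-3p replicate 1, nor GRAMD1C without miR-21-3p replicate 3 (adjusted p from 0.00246 to 0.0857 for GRAMD1C and from 0.000325 to 0.0595 for MYLIP).

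Other genes of fatty acid synthesis and elongation gave 3 higher and 0 lower of 16, with a median of 0.09. SCD5, a second stearoyl-CoA desaturase, read 1080, 1160 and 1160 against 1310, 1370 and 1320 (1.18-fold, adjusted p = 0.019). HACD3, a dehydratase of the elongation cycle, read 6980, 8150 and 7420 against 8550, 8540 and 9070 (1.16-fold, adjusted p = 0.0317), and ME1, the malic enzyme that supplies NADPH, 923, 1020 and 949 against 1150, 1120 and 1080 (1.16-fold, adjusted p = 0.0372). In these 3 genes all treated libraries were above all controls. None of the 3 passed without NC replicate 1 or 3, or without miR-21-3p replicate 1 or 3, nor ME1 without miR-21-3p replicate 2 or with the replicate number as a block (adjusted p from 0.00922 to 0.073, from 0.00186 to 0.123 and from 0.0101 to 0.15).

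Fatty acid activation gave 2 higher of 7 (median 0.07). SLC27A4, a fatty acid transporter and acyl-CoA synthetase, read 1960, 1980 and 1840 against 2320, 2190 and 2500 (1.21-fold, adjusted p = 0.0131), and ACSL4, the synthetase that prefers polyunsaturated chains, 1220, 1240 and 1250 against 1480, 1420 and 1350 (1.14-fold, adjusted p = 0.0356). Both were higher in 3 of 3 treated libraries than in any control. Neither passed without NC replicate 3 or without miR-21-3p replicate 1 or 3, where SLC27A4 reached an adjusted p of at most 0.0788 (lowest over the alternatives 0.00151). ACSL4 additionally did not pass without NC replicate 1, without miR-21-3p replicate 2 or with the replicate number as a block (0.0323 to 0.16).

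Glycerolipid synthesis gave 1 higher and 2 lower of 14 (median -0.04). AGPAT5, an acyltransferase, read 957, 1070 and 1010 against 1200, 1150 and 1210 (1.17-fold, adjusted p = 0.0273). CHKA, a choline kinase, read 462, 405 and 445 against 357, 353 and 364 (fold 0.820, adjusted p = 0.0346), and LPIN3, a relative of LPIN1, 1930, 1780 and 1870 against 1650, 1530 and 1690 (fold 0.873, adjusted p = 0.0391). The libraries did not overlap in any of the 3. Leaving out NC replicate 1 or 3, or miR-21-3p replicate 1 or 3, ended each of these calls, and leaving out miR-21-3p replicate 2 those of CHKA and LPIN3 (adjusted p from 0.00679 to 0.113, from 0.0102 to 0.131 and from 0.0138 to 0.138). With the replicate number as a block none of the 3 passed (adjusted p = 0.0551 for AGPAT5, 0.0606 for CHKA and 0.0595 for LPIN3). LPIN3 also did not pass with library totals alone as the scaling (adjusted p = 0.0508).

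Fatty acid oxidation, the breakdown route, gave 1 higher and 0 lower of 19, or 5.26%, with a median log2 fold change of 0.00043. The gene was ETFB, a subunit of the flavoprotein that takes electrons from acyl-CoA dehydrogenases, at 422, 399 and 419 against 506, 506 and 494. Its groups were far apart for so small a spread (1.21-fold, 1.10 to 1.34, adjusted p = 0.0233). ETFB did not pass without NC replicate 3, without miR-21-3p replicate 1 or 3, or with the replicate number as a block (adjusted p from 0.0228 to 0.0995).

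**Figure D4:**
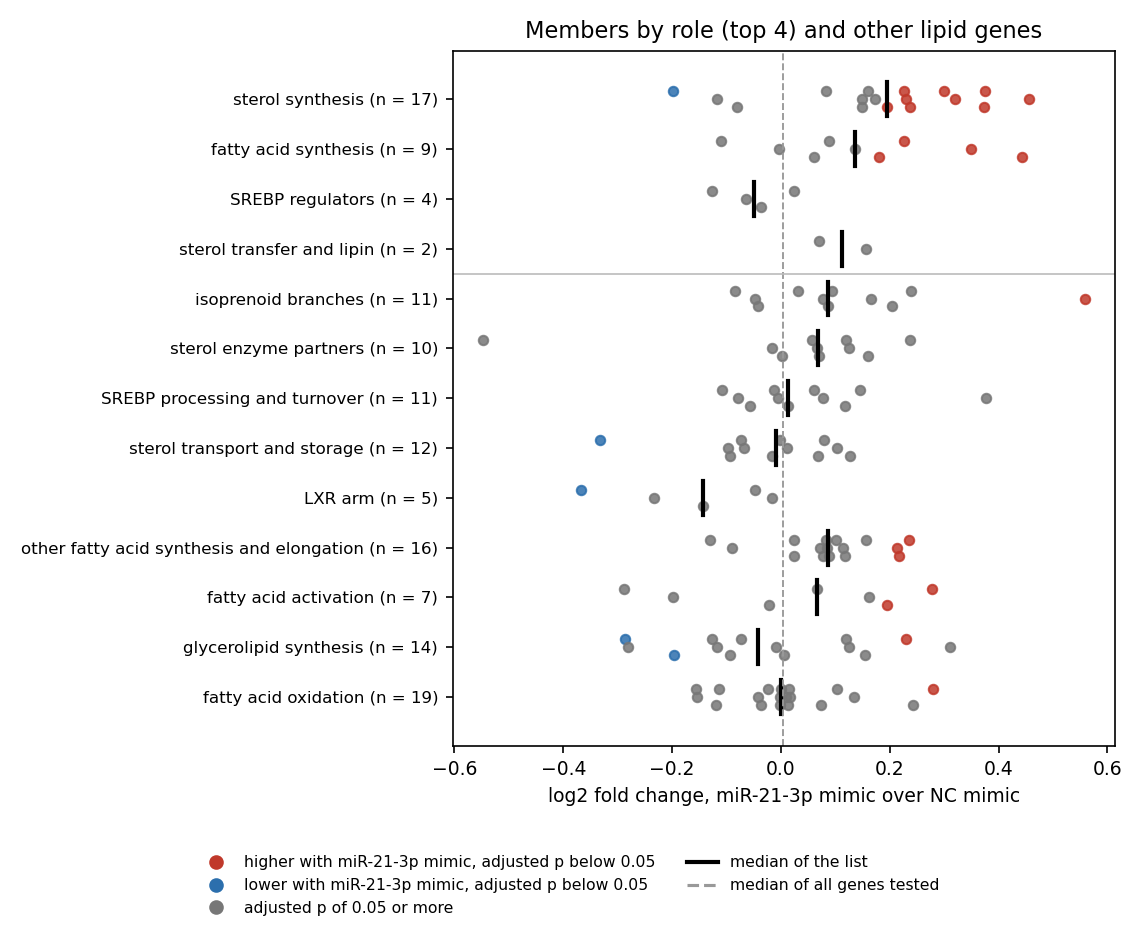
Log2 fold change (horizontal axis, miR-21-3p over NC mimic) of every gene with a value, 1 point per gene, in the 4 roles above the grey line and the 9 further lists below it; black bars are list medians, the dashed line is the median of all genes tested, and the vertical spread within a list carries no value. The bar of sterol synthesis lies at 0.20, that of fatty acid synthesis at 0.14, that of fatty acid oxidation next to the dashed line and that of the liver X receptor arm at -0.14.

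Some values can hold reads of another gene. In GENCODE v29, exons of 9 of the 32 genes share bases with a gene that was also tested, for 8 of them on the opposite strand, and whether strand was used in counting is not given in the sources used here. Of the genes that changed, this concerns ACAT2, HMGCS1 and IDI1. HMGCS1 shares 703 exon bases with AC114947.2 and IDI1 643 with IDI2-AS1, antisense genes whose means over the 6 libraries were 23.0 and 151 normalized counts. ACAT2 shares 397 exon bases (9.23% of its exon length) with TCP1, a chaperonin subunit on the other strand. TCP1 itself read 3520, 4090 and 3650 against 4500, 4170 and 4720 and was higher (log2 fold change 0.25, adjusted p = 0.026), so the value of ACAT2 is uncertain.

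Processed copies of members raise the same doubt, since reads may be split between near-identical sequences. SCDP1, a copy of SCD, read 2330, 2460 and 2590 against 2050, 2190 and 1750 and was lower (log2 fold change -0.31, adjusted p = 0.0235), with all treated libraries below all controls. FDPSP1 read 62.5, 69.0 and 90.8 against 105, 94.2 and 118, with no overlap between the groups (adjusted p = 0.0576). HSD17B7P2, at 183, 198 and 204 against 211, 189 and 232, was as abundant as HSD17B7 itself (adjusted p = 0.534), so the values of HSD17B7, and to a lesser degree those of SCD and FDPS, are uncertain.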

How the data were processed

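Polyadenylated RNA from 3 NC mimic and 3 miR-21-3p mimic cultures of HaCaT cells was sequenced by the authors. Per the labels, libraries came from a stranded mRNA kit, while the methods of the paper speak of small RNA libraries, and the labels were followed here. For these libraries the submitters' processing notes name bcl2fastq 2.18.12, cutadapt 1.15, TopHat2 2.1.1, featureCounts of Subread 1.5.2 and DESeq2. The genome build, annotation and strand setting of the counting are not given in the sources used here. The deposited signal values are gene counts that the authors divided by 1 size factor per library and rounded to 3 significant digits. Because they are not raw counts, the planned edgeR test gave way to its stated alternative, limma.

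Genes with a normalized count of at least 10 in at least 3 of 6 libraries (14795 of 22152) were tested with limma 3.58.1 in R 4.3.3 on log2(normalized count + 1), with a trended moderated variance and Benjamini-Hochberg adjustment over all genes tested (threshold 0.05). Fold changes and 95% intervals are on that scale, which understates changes of low genes. Below a mean of 36.0 normalized counts the table used here holds only genes with high Ensembl numbers, so genes of low level are few in the background. Dividing by the step of the low values gave whole reads within 0.1 for 100% of values under 100, and edgeR 4.0.16 (quasi-likelihood, TMM) on these reads called 1644 genes, 880 higher and 764 lower. DESeq2 1.42.0, other scalings, filters and pseudocounts and fits without each library were alternatives. The fits were tested on simulated data with changes larger than that of any gene of the list, so smaller changes were not covered.

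Genes were matched by Ensembl ID, older symbols included, and ACACA by symbol. The members and lists were chosen with earlier results of these data known. Values per library are given for each member that passed and for the largest rise and fall of each role, and pathway genes are named where they passed, at most 3 of the largest change per list. No library was left out of the main comparison. The result of 1 gene among the sterol enzyme partners is not reported here.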

Additional observations from a re-analysis of the deposited data

How the results depend on the processing

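The 14 calls among the 32 genes were the same 14 under edgeR with TMM or RLE scaling and under DESeq2. They were also the same under library totals, TMM factors in limma, both other filters and both other pseudocounts. The edgeR test with TMM had been planned for raw counts. Its use on recovered reads as an alternative, TMM factors in limma and the pseudocounts were chosen after seeing the data. In these fits the sterol median ran from 0.19 to 0.20, the fatty acid median from 0.13 to 0.14 and the regulator median was -0.05 in each. Counting STARD4 with the sterol genes gave 0.18 and LPIN1 with the fatty acid genes 0.11. The median of all genes lay between -0.00535 and 0.0091 in these fits.

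Fits without 1 library, which have fewer samples, moved the counts most: from 176 (without NC replicate 3) to 2951 (without NC replicate 2) for all genes, from 3 to 17 for the members, from 1 to 12 for the sterol genes and from 2 to 4 for the fatty acid genes. The sterol median then ran from 0.16 to 0.23, the fatty acid median from 0.08576 to 0.1931 and the regulator median from -0.09 to -0.01. Of the 14 genes, 3 passed in all 16 alternatives, and 3 of the other 18 gained a call in at least 1. No call changed sign, and of the 13 other lipid genes with alternatives 12 lost their call in at least 1. Further causes were not tested.

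Same-numbered libraries did not deviate together (correlations of deviations from the group means -0.04, -0.27 and -0.25 over 13619 genes), so the numbers are not taken as pairing. Between libraries of different number the correlation was 0.37 for NC replicate 2 with miR-21-3p replicate 3, 0.19 for NC replicate 1 with miR-21-3p replicate 2 and 0.185 for NC replicate 3 with miR-21-3p replicate 1, and from -0.15 to 0.09 for the others. With the replicate number as a block, 1193 genes and 11 of the 32 members passed.

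With 3 libraries per group, a gene that did not pass is not shown to be unchanged.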

Other observations

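Sphingolipid synthesis, which shares palmitate with the genes above and supplies the ceramides of the skin barrier, was listed after the data were seen. Of its 14 genes 1 was higher and none lower with limma (7.14% called, against 10.8% of all genes), with a median log2 fold change of -0.0014, while edgeR and DESeq2 each added 1 lower gene, CERS6. DEGS1, the desaturase that completes ceramide, had 1020, 1080 and 1060 normalized counts in the NC libraries and 1320, 1300 and 1350 in the miR-21-3p libraries. The groups were far apart (1.26-fold, 1.16 to 1.36; adjusted p = 0.00508), and the call held in each of the 16 alternatives (adjusted p from 0.000174 to 0.041). CERS6, a ceramide synthase, read 5160, 4520 and 4800 against 4320, 4400 and 3910 (limma adjusted p = 0.0512), with every treated library below every control.

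CYP51P2, a processed copy of a sterol gene that was not analysed here, read 238, 243 and 283 against 308, 350 and 298. Its groups did not overlap, and the difference did not pass (log2 fold change 0.32, adjusted p = 0.0542).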
